A study of Mus musculus with 3 samples.

Results

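The subunits of the mitochondrial respiratory chain and of ATP synthase were described in neural retina of Rp1 knockout mice. Rp1 binds the microtubules of the photoreceptor outer segment. A probe set, the group of short oligonucleotides that reports 1 transcript on the Affymetrix U74Av2 array, was taken where its single gene symbol began with Nduf, Sdha to Sdhd, Uqcr, Cox and a digit, Cyc1 or Atp5. This gave 108 probe sets of 79 genes among the 12422 probe sets that were not controls. The series held 3 arrays of total RNA, and each RNA joined the neural retinas of 3 to 4 Rp1-/- animals at postnatal day 10, on a mixed background of 129/SvEv with C57BL/6, taken between 1 and 2 pm. All 3 belonged to 1 group, and no control genotype was analysed here, so every comparison is between pools of the same genotype. Pools 2 and 3 are marked rp1 in their titles and pool 1 is not, although all 3 descriptions name the knockout. Pool 1 was kept in the group on that description, and its genotype was not checked from the signals. Values without pool 1 are those of pool 2 against pool 3. The pools were numbered in accession order, and the numbers have no order of their own. The labels do not say whether pools shared animals, so the spread measured is that between these RNA samples. The annotation used pairs Rp1 with none of the probe sets, so the loss of the gene was not checked here.

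The chain passes electrons from NADH through complex I, or from succinate through complex II, to complex III, cytochrome c and complex IV, which reduces oxygen. Complexes I, III and IV pump protons across the inner mitochondrial membrane, and ATP synthase (complex V) uses the gradient to make ATP. Photoreceptors pack mitochondria into the inner segment to pay for ion pumping and phototransduction, and the retina is known for its high oxygen use. Some subunits are encoded in mitochondrial DNA; those are outside the symbols used here and were not analysed. The prefixes also gather assembly factors, proteins that help to build a complex without staying in it. There were 12 probe sets of 9 such genes, and the other 96 belonged to 70 subunit genes.

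Signals are in the scaled intensity units of the deposited table, pools are given in the order 1, 2 and 3, and means are ± SD with n = 3. A probe set was called measured where its mean signal exceeded the mean background floor, the 90th percentile of 19 bacterial and yeast controls on each array (100.5, 124.8 and 120.4). Of the 108 probe sets, 86 were measured, from 73 genes. In all, 78 lay above the floor in all 3 pools, 13 in some pools and 17 in none. Over all 12422 probe sets, 57.9% lay above the floor in all pools. Signals of different probe sets are not relative amounts of transcript, because each probe set binds its target with its own strength.

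Across the arrays, 8327 probe sets were measured, and their median SD of log2 signal was 0.268. Control probe sets for the 3' end of Gapdh read 0.82, 0.90 and 0.75 times those for its 5' end, and for Actb 1.10, 1.40 and 1.63 times, a sign of RNA quality. Markers of cell types were read from the probe set of each gene with the highest mean signal. Markers of retina were present: all 9 rod markers with a probe set lay above the floor in all pools. Lens genes stood apart: the summed signal of 11 of 11 lens markers was 94914, 25460 and 203614, and 8 of the 11 passed the test of variability described next.

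None of the 86 measured respiratory chain and ATP synthase probe sets passed the test for varying between pools more than probe sets of like signal. The test was limma's fit of an intensity trend to the variances, with Benjamini-Hochberg adjustment over all 8327 measured probe sets and a threshold of 0.05. It called 18 probe sets in all (0.216%), and adjusted p in the 86 ran from 0.59 to 1. At an unadjusted p under 0.05 there were 2 of 86, Ndufv3 and Atp5k, where 5.34% of all measured probe sets passed. On simulated data the test found 3 of 50 changes of 2-fold in 1 pool and 36 of 50 of 4-fold, so most changes of 2-fold in a single gene were below its reach. The simulated noise had the same SD for probe sets of like signal, which real data need not share, so these counts may overstate the reach. In the data, the lens marker Bfsp1, at 430.0, 171.0 and 735.8, did not pass (limma, adjusted p = 0.36). In bulk RNA, fewer cells of a type and less RNA per cell cannot be told apart.

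The spread was small for most subunits. The median SD of log2 signal was 0.215 over the 86 probe sets, with 80% of them between 0.064 and 0.465. It was 0.268 over all measured probe sets and 0.214 over the 25% with the highest mean signal, to which 58 of the 86 belonged. Over those 58 it was 0.187. The highest and lowest pool differed by more than 1.5-fold for 28 of 86 (32.6%), against 41.7% of all measured probe sets. Among the 58 they did so for 12 (20.7%), against 26.1% of all those with the highest signal. The highest and lowest pool differed by more than 2-fold for 7 of 86 (8.1%), against 13.2% of all. With 1 pool left out, which can only narrow a range, the count of 28 became 5 of 84 without pool 1. It became 18 of 86 without pool 2 and 18 of 86 without pool 3. Over all probe sets above the floor in both pools, the shares past 1.5-fold were also lower. They were 17.2% for pools 2 and 3, 18.9% for pools 1 and 3 and 21.2% for pools 1 and 2.

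**Figure D1:**
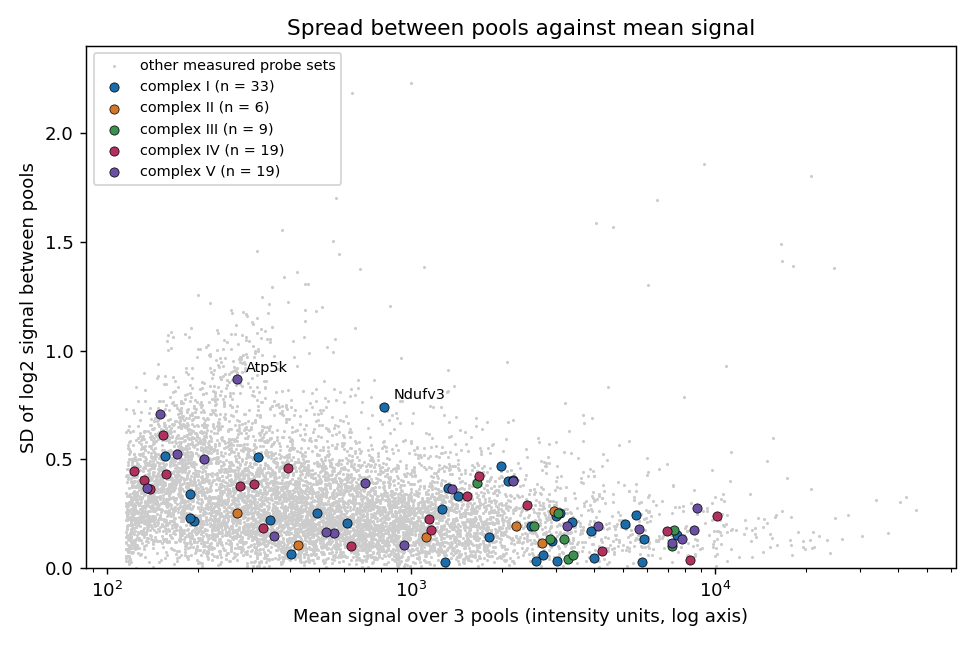
SD of log2 signal between the 3 pools against mean signal (log axis) for the 86 measured probe sets of the respiratory chain and ATP synthase, coloured by complex, and the other measured probe sets (grey). The coloured points lie within the cloud of grey ones, with a median SD of 0.215 against 0.268 for all. Atp5k and Ndufv3, at SDs of 0.87 and 0.74, have the highest SDs of the 86.

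The promoters of these genes are known for short sites bound by NRF1 and by GABP, an ETS-family factor, which act on many nuclear genes of the chain, and YY1 is another factor linked to them. RefSeq windows (GRCm38.p6) of 300 bases, from 250 before to 50 after the start, were at hand for 63 of the 79 genes, 69 windows in all. The core of the NRF1 site, GCGCA, any base and then GCGC, was found on either strand in 13 of 69 windows (18.8%), against 4.60% of all 32851 windows. The ETS core CCGGAAG was found in 22 (31.9%), against 8.86% of all, and the YY1 core AAGATGGC in 9 of 69, against 2.75%. The windows of these genes were also richer in G and C, with a median of 59.0% against 52.7%, and the part of base composition in these shares was not tested. The ETS and YY1 letters can overlap in AAG. A match is a description, not a bound site.

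Stretches before the start of 6 genes are shown because they carry NRF1 cores and because the genes span complexes I, II, IV and V and the range of spread between pools, from Ndufa8 (SD of log2 signal 0.031) to Atp5k (0.870). Matches, in either orientation, are in capitals, and each stretch is written 5′ to 3′ on the minus strand of the genome, the strand of these genes.
Ndufa5: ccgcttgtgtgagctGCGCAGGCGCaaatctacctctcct
Ndufa8: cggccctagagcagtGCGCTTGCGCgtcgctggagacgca
Sdha: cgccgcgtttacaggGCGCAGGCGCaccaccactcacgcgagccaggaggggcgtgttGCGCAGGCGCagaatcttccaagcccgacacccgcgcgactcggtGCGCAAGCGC
Sdhd: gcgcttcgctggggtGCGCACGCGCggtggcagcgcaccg
Cox6a1: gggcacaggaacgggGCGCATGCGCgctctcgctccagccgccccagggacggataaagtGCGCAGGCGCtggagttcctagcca
Atp5k: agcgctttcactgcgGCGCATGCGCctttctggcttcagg
The stretches lie at chr6:24527692-24527731 (Ndufa5), chr2:36049344-36049383 (Ndufa8), chr13:74350241-74350353 (Sdha), chr9:50603904-50603943 (Sdhd), chr5:115349051-115349135 (Cox6a1) and chr5:108434425-108434464 (Atp5k). Sdha held 3 cores, the last of them ending at the base before the start, and Cox6a1 held 2. Ndufa5 also held 2, of which the one nearer the start is shown.

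Complex I, which oxidises NADH, was the largest group, with 42 probe sets of 31 genes, 33 of them measured. Its core subunits, which carry the flavin and the iron-sulphur clusters, had SDs of log2 signal between 0.125 and 0.221. Ndufv1, which binds NADH and the flavin, had 6120.2, 5231.5 and 6159.9. Ndufs1 (iron-sulphur clusters) had 1628.9, 1991.2 and 1795.5, and Ndufs3 had 2949.5, 2654.8 and 3153.4. The highest pool differed between these genes, pool 3 for Ndufv1 and Ndufs3 and pool 2 for Ndufs1. Ndufv2, the partner of Ndufv1, had 3114.4, 4002.5 and 3074.8 by one probe set and 289.4, 346.7 and 392.7 by another of the f class, with pool 2 and pool 3 the highest in turn. The letters f, r, i, s and g before the end of an identifier (39 of the 108) mark designs that met looser criteria or may bind transcripts of a gene family. The class is not named beside every value.

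Some accessory subunits of complex I, which surround the core, were steady. Of the 31 measured probe sets of complex I subunits, core and accessory, 8 (25.8%) had a range over 1.5-fold. That share was 41.7% of all measured probe sets and 26.1% of those with the highest signal. The smallest spread of the 86 was that of Ndufa7, at 5618.0, 5826.8 and 5789.6 (SD of log2 signal 0.028), followed by Ndufa8, on the intermembrane side of the membrane arm, at 1269.7, 1324.7 and 1286.5. Ndufb10 had 2660.9, 2544.8 and 2556.7 and Ndufb8 4172.7, 3950.8 and 3917.6. In each of these 4 the highest pool was within 1.07-fold of the lowest. Ndufb5, of the membrane arm, had 6662.4, 7685.8 and 8198.9, lowest in pool 1. Ndufb2 was the 1 gene whose measured probe sets named the same highest pool, at 4509.6, 5736.3 and 6250.4 by one and 4343.5, 5037.7 and 5767.8 by the other, highest in pool 3 and lowest in pool 1 in both. Its 2 further probe sets were under the floor in all pools (11.7, 8.2 and 13.7, and 7.8, 33.3 and 6.1). Ndufa5 had 2770.1, 2795.0 and 2581.3 and Ndufb6 4343.0, 3428.4 and 3919.2, without a common order. Ndufa9 (2376.6, 2215.0 and 2880.0), Ndufb7 (3224.5, 3330.4 and 2460.4), Ndufa6 (520.9, 691.7 and 632.0) and Ndufa10 (557.3, 516.6 and 398.3) varied by 1.30-fold to 1.40-fold.

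Ndufv3, the accessory subunit that sits on the NADH-binding module beside Ndufv1 and Ndufv2, had the smallest p of the whole group. Its signals were 418.8, 1075.8 and 960.2, low in pool 1 and close together in pools 2 and 3. The range was 2.57-fold, and it did not pass (limma, adjusted p = 0.59). Over the alternatives run limma's adjusted p was 0.17 to 1, the latter without pool 1. Ndufv1 and Ndufv2, its neighbours in the module, did not share the low value in pool 1 to this extent, with ranges of 1.18-fold, 1.30-fold and 1.36-fold over their 3 probe sets.

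Several other accessory subunits were, like Ndufv3, highest in pool 2. Ndufab1, the mitochondrial acyl carrier protein, had 1690.2, 2754.8 and 1488.4, and its pools spanned 1.85-fold (limma, adjusted p = 0.96). Ndufc1 had 1967.6, 2876.5 and 1664.3 and Ndufb9 1483.8, 2514.4 and 2240.1, and neither passed. Ndufa2 had 989.2, 1648.3 and 1348.1 and Ndufb3 1136.2, 1792.4 and 1353.6. In all 5 of these genes pool 2 stood at the top, while the place of pools 1 and 3 varied. Ndufb11 (2617.1, 3694.2 and 2963.4) and Ndufa13 (1135.4, 1554.8 and 1113.6), a subunit first known as a cell death gene, were also highest in pool 2.

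Low signals of complex I limited what could be read for a few genes. Ndufa1, a small membrane-arm subunit, had 245.1, 166.7 and 52.7, under the floor in pool 3, so pool 1 was at least 2.04-fold higher than pool 3, and a further probe set was under the floor throughout (mean 33.9 ± 21.5). Ndufa12 had 114.1, 120.7 and 43.4 and was not measured. Ndufs4, known from a mouse model of Leigh syndrome, was close to the floor at 166.9, 173.6 and 223.5. Ndufc2 had 230.8, 189.1 and 143.8. Of the assembly factors, Ndufaf1 had 384.8, 421.2 and 400.0, within 1.09-fold, and Ndufaf4 207.3, 417.1 and 318.0, 2.01-fold from pool 1 up to pool 2 (limma, adjusted p = 0.99). Both factors had a second probe set that was not measured, as did Ndufb10, Ndufb6 and Ndufb7, whose signals there ran from 2.9 to 138.4 over the 5 probe sets and the pools. Only the value of Ndufaf1 in pool 3, the highest of these, was above the floor.

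Complex II (succinate dehydrogenase) was measured for all 6 of its probe sets, each above the floor in all pools. Sdha, the flavoprotein, had 223.0, 316.5 and 263.7, and Sdhb, the iron-sulphur subunit, 1947.1, 2545.4 and 2135.7. Both were highest in pool 2 and lowest in pool 1. The membrane anchors Sdhc and Sdhd had 2675.6, 2599.2 and 3604.2 and 2456.2, 2813.3 and 2847.2, both highest in pool 3. Sdhaf1, which helps to place iron-sulphur clusters in Sdhb, had 1021.9, 1099.0 and 1241.7, and Sdhaf2, which helps to attach the flavin to Sdha, 457.3, 423.7 and 393.7. No range in complex II exceeded 1.42-fold, and the median SD of log2 signal was 0.169.

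Complex III, which passes electrons to cytochrome c, had the smallest median SD of the 5 complexes, 0.136 over 9 probe sets of 8 genes, all above the floor in all pools. Its median signal, 3187, was also the highest of the 5, and spread was smaller at high signal in the whole table. The core proteins Uqcrc1 and Uqcrc2 had 2954.7, 2580.1 and 3094.5 and 2502.5, 3552.8 and 3105.8, the first lowest and the second highest in pool 2. Cyc1, the cytochrome c1 that hands on the electrons, had 6727.4, 7123.9 and 7749.6 by one probe set and 3377.6, 3259.0 and 3189.6 by another of the r class. Pool 1 was lowest in the first and highest in the second, both within 1.15-fold. Uqcrq had 6418.3, 7326.7 and 8204.7, Uqcrh (the hinge protein) 2855.3, 3306.8 and 3399.7 and Uqcrb (at the quinone site) 3451.0, 3541.5 and 3259.9. Uqcr10 had 2262.9, 2946.3 and 2436.2, highest in pool 2. Uqcr11, a small subunit, was the 1 member of complex III past 1.5-fold, at 1235.8, 1573.1 and 2124.9, 1.72-fold (limma, adjusted p = 0.99).

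Complex IV (cytochrome c oxidase) had the largest median SD, 0.332 over 19 measured probe sets, of which 5 were under the floor in at least 1 pool. Median signal was also lowest here, at 637, and spread was larger at low signal in the whole table. Subunits with high signals ranged from steady, such as Cox6c and Cox5b, to a spread of 1.58-fold in Cox7a2l. Cox6c had 8127.6, 8521.2 and 8201.3 by a probe set of the f class (SD of log2 signal 0.036). Its 2 other probe sets were not measured (149.6, 54.9 and 98.1, and 5.6, 77.0 and 78.7). Cox5b had 4388.4, 4352.4 and 3982.4, within 1.10-fold. Cox6a1 had 10119.9, 8460.3 and 11806.1, highest in pool 3, and Cox7a2 6215.5, 7856.8 and 6844.0, highest in pool 2. Cox7b had 1884.3, 2719.2 and 2623.5, lowest in pool 1. Cox7a2l, a factor that joins complexes III and IV into supercomplexes and whose alleles are known to differ between inbred mouse strains, had 1210.2, 1915.6 and 1478.0. It was highest in pool 2 and lowest in pool 1, by 1.58-fold (limma, adjusted p = 0.99).

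Complex IV has isoforms tied to tissues, and those of heart and skeletal muscle were mostly not detected. Cox6a2 had 66.0, 73.2 and 79.8 and Cox7a1 60.1, 7.7 and 30.4, both under the floor on every array, beside the counterparts Cox6a1 and Cox7a2 above. Of 12 skeletal muscle markers with a probe set, 7 were measured and 3 were above the floor in all pools, with summed signals of 1330, 1237 and 1437 over the 7, and Myh1, Myh2, Tnnt3, Tnni2 and Mb were under the floor throughout. Cox8b, a muscle isoform, gave 391.5, 295.8 and 229.5 by a probe set of the r class and 88.3, 175.9 and 133.4 by another, highest in pool 1 in the first and in pool 2 in the second, which was under the floor in pool 1. Its ubiquitous counterpart Cox8a was under the floor in all pools, at 30.4, 41.8 and 24.8. Of the testis isoforms, Cox8c had 1085.6, 1079.2 and 1339.4 by one probe set and was under the floor in another (3.9, 17.8 and 10.1). Cox6b2 had 365.3, 283.2 and 331.1 by one of the f class, 43.5, 191.5 and 223.0 by one of the r class and 32.4, 19.7 and 27.7 by one of the i class, the last under the floor throughout. The second of these was under the floor in pool 1, so pool 3 was at least 2.22-fold higher there. Probe sets of Cox8c and of Cox6b2 thus disagreed on whether the gene was detected at all.

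Some ubiquitous subunits of complex IV gave signals near the floor. Cox4i1, which opens the assembly of the complex and is made in nearly all tissues, had 301.6, 547.9 and 333.9 by a probe set of the f class. Another gave 214.2, 139.3 and 116.0, so that pool 2 and pool 1 were highest in turn. The second was under the floor in pool 3. Cox5a had 22.9, 174.7 and 169.5, under the floor in pool 1, so that pool 2 was at least 1.74-fold higher, and its other probe set lay under the floor throughout (27.1, 84.7 and 73.4). Cox6b1 had 342.7, 203.3 and 278.0, highest in pool 1. Among the assembly factors, Cox17, a copper chaperone, had 1224.7, 2206.8 and 1579.9, 1.8-fold higher in pool 2 than in pool 1 (limma, adjusted p = 0.99). Cox16 had 590.0, 676.6 and 644.2, and Cox18, which helps to insert a core subunit into the membrane, 1343.6, 1125.2 and 981.1, with a second probe set under the floor (8.3, 85.2 and 4.4). Cox14 had 112.3, 123.1 and 181.2, just under the floor in pool 2, and Cox20 lay under the floor throughout, at 79.0, 38.6 and 105.8.

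ATP synthase (complex V) was measured for 19 of 22 probe sets, from 13 of 14 genes. In the F1 head, which makes ATP, the alpha subunit Atp5a1 had 7518.5, 8535.0 and 9617.7, highest in pool 3. The gamma subunit Atp5c1, the rotating shaft, had 5229.1, 5145.1 and 6444.7 by one probe set, highest in pool 3, and 2887.7, 3755.2 and 3151.3 by another, highest in pool 2. The epsilon subunit Atp5e had 1018.6, 1381.7 and 1682.3, lowest in pool 1 and highest in pool 3, by 1.65-fold. The delta subunit Atp5d had 5 measured probe sets, of which the one with the highest mean had 925.6, 893.6 and 1031.4. The other 4 had 591.4, 595.2 and 488.3; 466.5, 587.2 and 518.5; 243.5, 143.8 and 121.1; and 291.8, 33.6 and 123.8. The last was under the floor in pool 2, and pool 1 was 2.36-fold higher than pool 3. The one named before it, with a range of 2.01-fold, was also highest in pool 1, and the other 3 varied by no more than 1.26-fold. Those 3 were of the f class, while the identifiers of those highest in pool 1 carry no such letter.

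Several membrane subunits of ATP synthase were lowest in pool 1. Atp5mpl, a small proteolipid of the complex, had 7083.4, 8710.3 and 10405.3, Atp5md (known as DAPIT) 7147.6, 7600.8 and 8582.3 and Atp5l (subunit g) 6553.3, 7558.1 and 7521.6. The first and second were highest in pool 3, and the last in pool 2 by little. Atp5k, subunit e, which with subunit g shapes the dimer of ATP synthase, had 126.8, 255.8 and 421.3. Pool 3 was highest and pool 1 lowest, and the range of 3.32-fold, with an SD of log2 signal of 0.87, was the largest of the 86 probe sets but did not pass (limma, adjusted p = 0.83). All 3 values were above the floor, that of pool 1 by the least. A second probe set of Atp5l, of the f class, was also lowest in pool 1 but highest in pool 3, at 142.8, 198.7 and 285.6.

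Among the other members of the complex the lowest pool varied. Atp5j, coupling factor 6 of the stalk, was highest in pool 1, at 2890.9, 1916.4 and 1701.7, 1.70-fold (limma, adjusted p = 0.99). Atp5o, the stalk protein known as OSCP, had 4320.4, 3502.9 and 4516.6, and Atp5pb, subunit b, 387.0, 315.7 and 357.4, both lowest in pool 2. Of the genes of subunit c, which forms the rotating ring, Atp5g1 and Atp5g2 were among those described. Their precursors differ but give the same mature protein. Atp5g1 had 95.0, 151.1 and 160.5, under the floor in pool 1, and its other probe set lay below the floor on every array (86.1, 121.3 and 98.7). Atp5g2 had 807.5, 804.1 and 503.2, lowest in pool 3, and 135.5, 69.2 and 75.0 by a probe set that was not measured. Atp5j2, subunit f, had 62.8, 63.7 and 139.3 and was not measured.

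**Figure D2:**
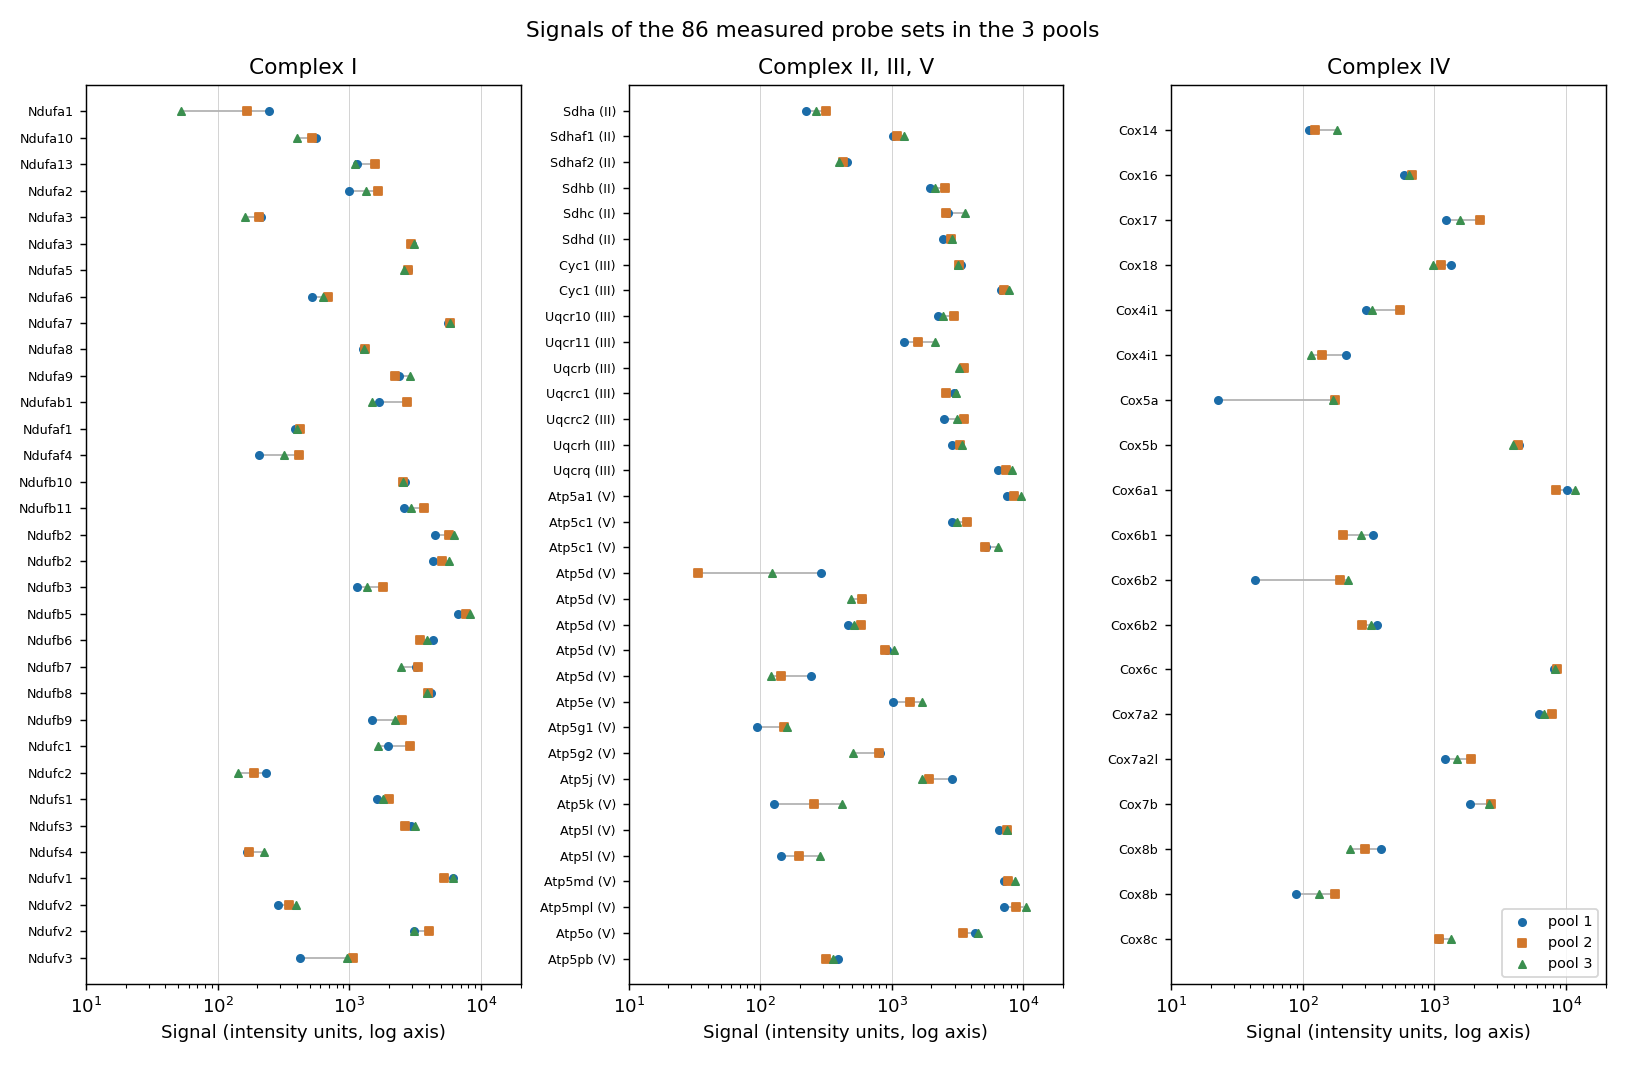
Signals (log axis) of the 86 measured probe sets in pool 1 (circles), pool 2 (squares) and pool 3 (triangles), by complex and gene; a gene with several probe sets has several rows, and grey lines join the lowest and highest pool. Long rows include those with a value under the floor, such as Cox5a (22.9 in pool 1), and those of Atp5k (126.8 to 421.3) and Ndufv3 (418.8 to 1075.8).

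Probe sets of one gene often named different pools. Of 22 genes with several probe sets, 14 had at least 1 measured and 1 not measured. Of the 10 with several measured, 9 named more than 1 highest pool (Atp5c1, Atp5d, Atp5l, Cox4i1, Cox6b2, Cox8b, Cyc1, Ndufa3 and Ndufv2), and Ndufb2 alone kept one. Ndufa3 had 3019.4, 2962.5 and 3108.2 by one set, within 1.05-fold, and 213.9, 205.4 and 162.1 by another, both of the f class. The order of pools of a single subunit is therefore not a firm reading, also where its signal is high.

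**Figure D3:**
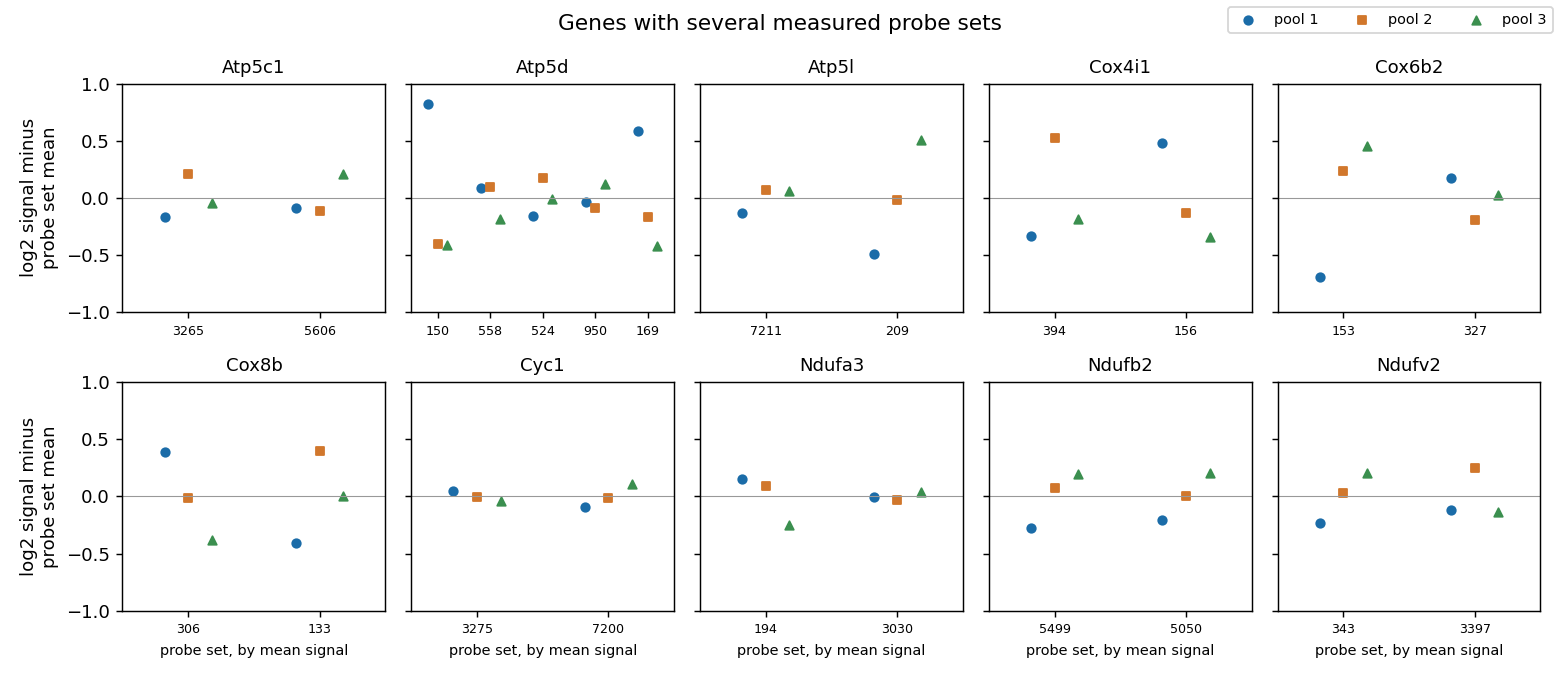
log2 signal minus the probe set's mean over the pools for the 10 genes with several measured probe sets; each column of 3 points is 1 probe set, labelled with its mean signal in intensity units, and values under the floor were set to it before log2. The highest pool changes between probe sets in all panels but that of Ndufb2.

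These probe sets were lowest in pool 1 more often than others. Of the 78 probe sets above the floor in all pools, 42 (53.8%) were lowest in pool 1, against 35.7% of all 7198 such probe sets and 34.2% of those with the highest signal. Pool 2 was lowest for 16, against 33.2% and 36.0%, and pool 3 for 20, against 31.0% and 29.9%. Pool 2 was highest for 33 (42.3%), against 34.3% of all and the same share of those with the highest signal. Pool 3 was highest for 28 (35.9%), against 32.0% and 31.5%, and pool 1 for 17 (21.8%), against 33.7% and 34.2%. The difference in these shares was not tested. The most frequent order was pool 2, then 3, then 1, for 25 probe sets (32.1%, against 19.2% of all). The next was pool 3, then 2, then 1, for 17 (21.8%, against 16.5%).

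**Figure D4:**
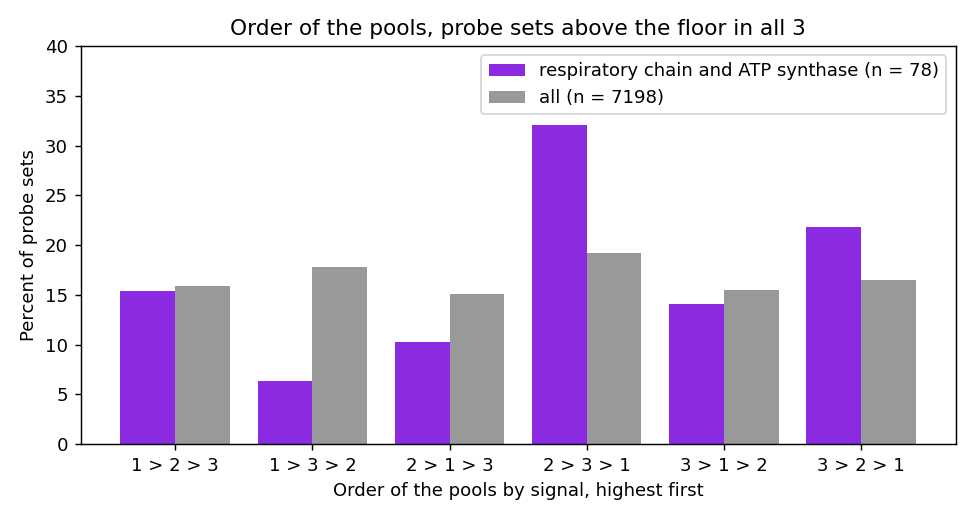
Percent of probe sets with each of the 6 orders of the pools by signal, highest first, for the 78 probe sets of the respiratory chain and ATP synthase above the floor in all pools and for all 7198 such probe sets. The orders that end in pool 1 hold 32.1% and 21.8% of the former, against 19.2% and 16.5% of all.

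Among probe sets above the floor in both pools, pool 1 minus pool 2 had a median log2 difference of -0.10 (n = 80). Pool 1 minus pool 3 had -0.14 (n = 80), and pool 2 minus pool 3 had 0.05 (n = 82). Over all measured probe sets it was -0.01, -0.01 and 0.00. With 1 array on each side there is no test. Pool 1 was lower than pool 2 for 50 of 80 (62.5%, against 51.1% of all and 49.5% of those with the highest signal). It was lower than pool 3 for 54 of 80 (67.5%, against 51.3% and 50.5%). Pool 2 was lower than pool 3 for 35 of 82 (42.7%, against 50.0% and 51.2%).

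Pools 2 and 3 were close to each other for these genes. They differed by more than 1.5-fold, in either direction, for 5 of 82 probe sets (6.1%), against 17.2% of all and 11.4% of those with the highest signal. Pools 1 and 2 differed by more than 1.5-fold for 14 of 80 (17.5%, against 21.2% of all and 15.7% of those with the highest signal), and pools 1 and 3 for 14 of 80 (17.5%, against 18.9% and 11.4%). Among the 58 of these probe sets with the highest signal, the shares were 5.2% for pools 2 and 3. They were 13.8% for pools 1 and 2 and 10.3% for pools 1 and 3.

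**Figure D5:**
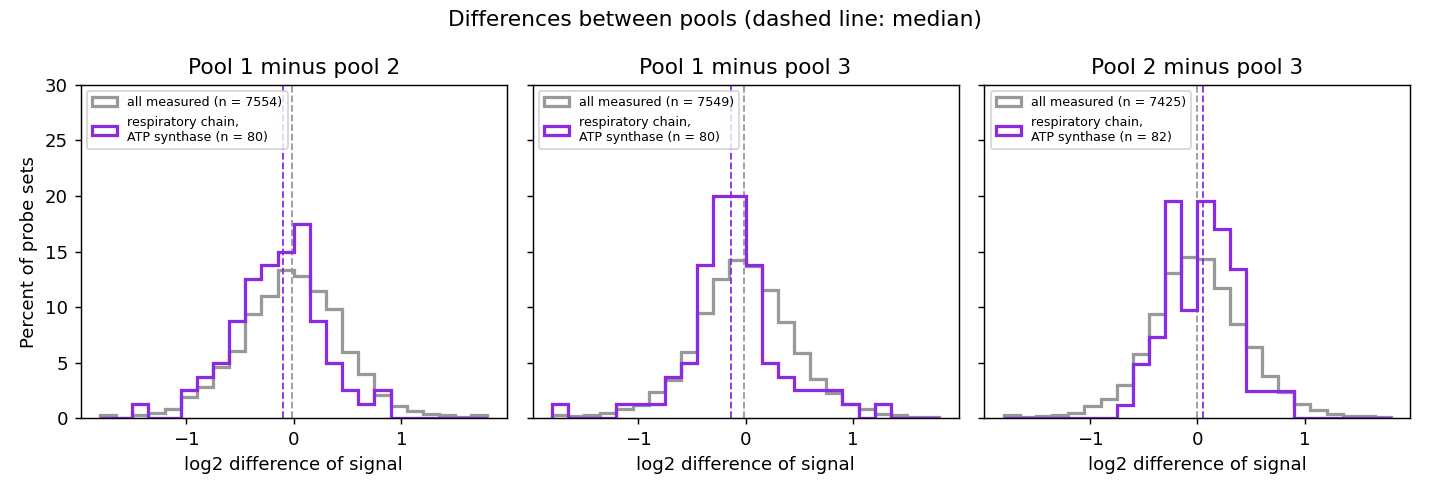
Distribution of the log2 difference of signal between each pair of pools, in percent of probe sets, for all measured probe sets (grey) and those of the respiratory chain and ATP synthase (violet), above the floor in both pools; dashed lines are medians and values beyond 1.8 are counted in the end bins. The violet medians are -0.10, -0.14 and 0.05, and the violet distribution of pool 2 minus pool 3 has thinner tails than the grey.

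The complexes did not all name the same top pool. Of the 32 probe sets of complex I above the floor in all pools, 17 (53.1%) were highest in pool 2 and 9 (28.1%) in pool 3. Of the 17 of complex V, 9 (52.9%) were highest in pool 3 and 4 (23.5%) in pool 2. Over all probe sets above the floor in all pools, 34.3% were highest in pool 2 and 32.0% in pool 3. The median log2 difference of pool 2 minus pool 3 was 0.12 for complex I and -0.17 for complex V. It was 0.04, -0.04 and 0.07 for complexes II, III and IV. Pool 1 minus pool 3 had medians of -0.05, -0.23, -0.20, -0.14 and -0.15 for complexes I to V. The difference between complexes was not tested, since the genes are not replicates of a condition.

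Markers of cell types are given beside these orders. Only the probe set of each marker gene with the highest mean signal was read, so agreement between probe sets of a gene was not checked. All 9 measured rod markers were highest in pool 2, and 6 of the 9 were lowest in pool 1, with summed signals of 73612, 95002 and 84506. The summed signal of the 86 respiratory chain and ATP synthase probe sets was 200404, 219897 and 224916. All 3 measured blood markers were highest in pool 1, with sums of 20541, 12672 and 10546. Of 5 endothelial markers with a probe set, the 4 measured were all highest in pool 3 (1387, 1484 and 1923). The other, Tek, had 116.3, 76.7 and 77.4, above the floor in pool 1 only. The 4 measured pigment epithelium markers of 6 with a probe set summed to 1434, 1381 and 2221, and Rpe65 had no probe set in the annotation used. Sums were 10362, 9286 and 10596 for 5 cone markers, 20074, 18029 and 19557 for 5 Müller glia markers and 15150, 15953 and 16414 for 9 markers of inner retinal neurons. Single genes of these 3 lists did not share an order. Pools 1, 2 and 3 were highest for 2, 2 and 1 cone markers, and likewise for Müller glia. For inner retinal neurons the counts were 3, 4 and 2. The largest part of the cone sum was Gnb3, at 6586.4, 4756.8 and 6497.0. The part of rods, lens, blood or other cells in the values of pool 1 was not tested.

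Genes that work with the chain were read from lists grouped by function, again by the probe set of each gene with the highest mean signal. Of the 10 genes of cytochrome c and of the enzymes that feed electrons or acetyl groups, all were measured and none passed. In 5 (50.0%) pool 1 was lowest, against 35.7% of all probe sets above the floor in all pools. Cycs, the cytochrome c of somatic cells, had 392.0, 424.2 and 415.0. Pdhb and Dld, of the pyruvate dehydrogenase complex, had 2940.3, 3227.7 and 2004.8 and 1078.7, 1955.0 and 1351.5, and Dhodh, which feeds electrons from pyrimidine synthesis, 1583.2, 1538.1 and 1605.3. The first of these pyruvate dehydrogenase genes was lowest in pool 3 and the second in pool 1.

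Of 20 genes of import, the adenine nucleotide carrier and the porins with a probe set, 18 were measured and none passed. Of the 18, 10 (55.6%) were lowest in pool 1, against 35.7% of all probe sets above the floor in all pools. Slc25a4, which exchanges ADP for ATP, had 10382.3, 12611.9 and 9615.3, Timm13, an import chaperone, 1902.4, 2082.6 and 2511.5, and Hspd1, the matrix chaperonin, 1177.0, 1346.9 and 2802.2, highest in pool 3 (limma, adjusted p = 0.60). Over the 18 genes pool 1 minus pool 2 had a median of -0.12 on the log2 scale, and pool 1 minus pool 3 of -0.14.

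Of the regulators of mitochondrial biogenesis, 13 of 20 had a probe set and 10 were measured, and none passed. Yy1 had 1031.9, 977.4 and 739.9, Esrra 549.7, 570.7 and 660.6 and Polrmt, the mitochondrial RNA polymerase, 482.8, 595.9 and 557.1. Of the 8 above the floor in all pools 5 (62.5%, against 35.7% of all such probe sets) were lowest in pool 1. Highest in pool 2 were 5 of the 8 (62.5%, against 34.3%). Among them was Gabpa, the DNA-binding subunit of GABP, at 196.8, 407.6 and 306.8. Tfam, Polg and Pprc1 were not measured. Ppargc1a, a coactivator of these genes, had 131.1, 149.3 and 87.7, under the floor in pool 3.

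Assembly factors outside the prefixes were measured for 10 of 10 genes with a probe set, and none passed. Atpif1, the inhibitor of ATP synthase, had 2964.1, 3143.4 and 2547.4, Coa3 1355.7, 1383.8 and 1513.0 and Uqcc1 1085.0, 842.3 and 967.3. Tmem70, which helps to build ATP synthase, had 1152.8, 463.6 and 915.6, low in pool 2 (limma, adjusted p = 0.65). Of genes of uncoupling and of oxidant defence in mitochondria, 6 of 7 with a probe set were measured and none passed. Prdx3 had 947.3, 1609.6 and 1205.5, Gpx1 952.8, 607.5 and 504.0 and Sod2, the matrix superoxide dismutase, 365.0, 468.8 and 156.0, low in pool 3 (limma, adjusted p = 0.81).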

How the data were processed

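Retinal RNA of 3 pools was measured on 1-colour arrays. The deposited values are linear intensities, 1 for each probe set and array. The authors' values had been scaled, since means after trimming 2% at each end were 500.26, 500.25 and 500.26. Which software made them is not given in the sources used here. Of 12488 probe sets listed, 66 controls were left out, and 1 blank row was dropped. The platform annotation gave 10833 probe sets 1 symbol, 396 several and 1193 none. Those with several stayed unnamed, 11 of them sharing a symbol with the genes described.

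Values under the floor of an array were raised to it before log2. Pair differences, and counts of orders and of highest and lowest pools over sets, used only values above the floor. SDs, ranges, the test of variability and the highest pools of genes with several probe sets used the raised values. limma 3.58.1 (R 4.3.3) fitted an intercept for each probe set, then a robust prior for the variances that followed mean signal, and gave an upper tail p. On simulated data for 8327 probe sets it also called 50 of 50 changes of 8-fold, 50 of 50 of 16-fold and 2 of 8127 unchanged ones. Python 3.11.15 with pandas 2.3.3, numpy 2.4.6, scipy 1.17.1 and matplotlib 3.10.9 did the rest. The number of arrays limits the precision.

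By rule, any gene of the chain could be named. Values were given for those past the test, up to 5 per complex with the highest signal and up to 3 with the largest SD, ranges over 2-fold, probe sets that disagree, values under the floor, tissue isoforms and the subunit c genes. Of each list of related genes, up to 3 with the highest signal and any past the test were named. Cycs, Gabpa, Ppargc1a, Tmem70, Tfam, Polg and Pprc1 fell outside this and were chosen after their values were seen. So did the chain's genes that meet none of these criteria, whose values were added so that each gene is given. Genes and lists were chosen with earlier results of these data known. Alternatives changed the floor, normalization, filter, prior fit, choice of probe sets and arrays.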

Additional observations from a re-analysis of the deposited data

How the results depend on the processing

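The count of probe sets past limma's test was 0 of 86 in the main analysis (2 at an unadjusted p under 0.05) and 0 (1 to 5 at an unadjusted p under 0.05) under each alternative run: floor at the median control, quantile normalization, no filter, the 25% with the highest signal, an ordinary fit, no intensity trend, without assembly factors, without suffixed probe sets and without each pool. The smallest adjusted p over these fits was 0.17, for Ndufv3 with no filter. The count with a range over 1.5-fold, 28 of 86, became 36 of 96 with the floor at the median control and 21 without suffixed probe sets. It became 12 among the 25% with the highest signal, where fewer probe sets enter, and lay between 5 of 84 and 18 of 86 when 1 pool was left out. The medians kept their sign in all alternatives run: -0.19 to -0.08 for pool 1 minus pool 2, -0.15 to -0.11 for pool 1 minus pool 3 and 0.02 to 0.09 for pool 2 minus pool 3. No paired analysis was possible because all arrays belong to 1 group. Low signal limits what can be said of Cox4i1, Cox5a, Cox8a, Ndufa1 and Atp5g1.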
